A study of Mus musculus with 23 samples.

Results

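The genes described here are the cytokines and chemokines, which are secreted signals of immune cells, their receptors, and the Socs inhibitors of cytokine receptors, as measured in mouse prefrontal cortex after a tumour was started elsewhere in the body. They were chosen by symbol, as every probe whose platform symbol begins with Ccl, Cxcl, Cx3c, Cxcr, Tnfrsf, Tnfsf or Socs, with Ccr, Il or Csf and a digit, or is Tnf. The rule found 110 probes for 109 symbols among 8997 probes for 8726 symbols. None of them was for Tnf itself, Il1a, Cx3cl1, Cx3cr1, Cxcr4, Csf1, Csf1r or Tnfrsf1a, so these genes were not measured here. Of these 110 probes, 53 are for ligands, 51 for receptors (50 symbols, since Il6ra has 2 probes), and 6 for neither: Socs2, Socs3, Socs5 and Socs6, the enzyme gene Il4i1 and the receptor antagonist gene Il1f5. Male Balb/c mice of 8 weeks received 1000000 cells of CT-26.WT (a line from a mouse colon carcinoma) under the skin in 300 µl PBS, or 300 µl PBS alone, and the prefrontal cortex was taken 18, 72 or 192 h later. No group carried an engineered allele, and the tumour cells lay outside the brain. Every array carried RNA of a tumour sample and of a PBS sample of the same time, labelled with different dyes (Cy3 and Cy5). A probe's value is the log2 of its tumour signal over its PBS signal on the same array, so that 0 means equal signal and 1 means 2-fold more in the tumour sample.

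Chemokines of the Ccl and Cxcl families bind receptors of the Ccr and Cxcr families and direct the movement of leukocytes. Interleukins and colony-stimulating factors act through receptor chains that mostly signal by Janus kinases and STAT proteins, while interleukin 1 and tumour necrosis factor (TNF) family members act largely through NF-kB. The Socs proteins are induced by cytokine signalling and damp it. In the brain these signals come mainly from microglia, astrocytes, endothelium and, in infection or injury, from leukocytes that enter the tissue, and most of them are at low abundance in healthy cortex. Peripheral inflammation is a known inducer of several of them in rodent brain.

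The proximal promoters of 3 members are shown because each carries binding letters of a route by which these genes are induced: Cxcl1, a neutrophil chemokine, Cxcl10, an interferon-induced chemokine for T cells, and Socs3, an inhibitor of receptors that signal by STAT3. The sequences run from 250 bases before to 50 bases after the gene start and are from RefSeq, build GRCm38.p6. Capitals mark the letters GGNNTTTCC (an NF-kB site form) in Cxcl1 (chr5:90890995-90891294, plus strand), GAAANNGAA (part of the interferon-stimulated element) and the NF-kB letters in Cxcl10 (chr5:92348840-92349139, minus strand) and TTCNNNGAA (a STAT site form) in Socs3 (chr11:117969317-117969616, minus strand), each searched on both strands.
Cxcl1: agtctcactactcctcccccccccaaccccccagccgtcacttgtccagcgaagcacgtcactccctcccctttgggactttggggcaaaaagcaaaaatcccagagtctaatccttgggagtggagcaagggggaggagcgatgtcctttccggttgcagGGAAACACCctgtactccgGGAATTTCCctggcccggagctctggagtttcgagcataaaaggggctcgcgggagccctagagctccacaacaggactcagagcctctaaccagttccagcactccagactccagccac
Cxcl10: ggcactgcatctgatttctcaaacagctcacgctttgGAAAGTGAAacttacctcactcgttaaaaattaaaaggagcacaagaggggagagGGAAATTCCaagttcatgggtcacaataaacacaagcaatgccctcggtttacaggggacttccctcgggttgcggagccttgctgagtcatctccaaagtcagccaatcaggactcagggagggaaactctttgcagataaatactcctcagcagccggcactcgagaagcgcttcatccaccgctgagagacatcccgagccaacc
Socs3: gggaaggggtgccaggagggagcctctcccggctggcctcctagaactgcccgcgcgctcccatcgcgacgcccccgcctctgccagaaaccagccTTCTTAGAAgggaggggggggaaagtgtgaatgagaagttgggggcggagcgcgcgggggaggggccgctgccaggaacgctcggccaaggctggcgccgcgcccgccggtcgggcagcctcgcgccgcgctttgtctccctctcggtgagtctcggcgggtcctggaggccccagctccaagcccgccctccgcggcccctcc
The Cxcl1 promoter held the NF-kB letters at 2 places. Promoter sequences were at hand for 80 member symbols (95 promoters). The NF-kB letters were in 16 of these 95 promoters (16.8%), among them Cxcl1, Cxcl2, Ccl20, Ccl9 and Il6, and in 5.82% of all 32851 promoters of the same length. The STAT letters were in 13 (13.7%, against 8.3% of all), and the interferon letters in 15 (15.8%, against 8.56%). The marked stretches do not overlap one another, and a match describes letters in a window, not a bound factor.

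Of 23 arrays, 16 entered the comparisons: 6 arrays of 3 replicates at 18 h, 3 arrays of 2 replicates at 72 h and 7 arrays of 4 replicates at 192 h. The other 7 arrays were left out because the brightness of their probes did not follow that of the same probes on arrays of other print layouts (mean Spearman's rho of 0.00857 to 0.0495, against 0.188 to 0.503 on the arrays kept), which removed replicates 1 and 2 at 72 h. The 72 h replicates are thus numbered 3 and 4. Replicate 3 at 72 h rests on 1 array with the tumour RNA in Cy5, and its brightness followed that of its own layout only weakly. Its mean rho there was 0.062, below the 0.079 of its dye-swapped partner, which was left out. The other arrays of that layout had 0.206 to 0.436. The values at 72 h are therefore also given without replicate 3 where it decides them. At 192 h, the first 2 replicates were poly(A) RNA measured in 1 orientation each, tumour in Cy5 and in Cy3 respectively, and all other replicates were total RNA. The poly(A) arrays kept were of a single print layout that no total RNA array had, so RNA and layout cannot be told apart. Markers of cortical neurons were bright (median percentile 56.7, with a usable spot on 93.8% of arrays for the median probe of 7), and markers of blood leukocytes were dim (median percentile 20.1, 9 probes). In bulk tissue, fewer cells of a type and less RNA per cell cannot be told apart.

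The median member was dimmer than the median probe. The brightness of a probe is given here as the percentile of its PBS signal among the usable probes of an array, as the median over arrays. It describes spots, since oligonucleotides differ in how well they bind. The median member stood at the 32.1 percentile (ligands 30.8, receptors 34.1), against 38.2 for all probes, and 28.2% of members lay below the 25th percentile, against 23.6% of all probes. Of the 110 probes, 3 (2.73%) lay at or above the 75th percentile, against 10.3% of all probes, and all 3 were receptors: Il6ra, the interleukin 6 receptor chain, at 96.9, Il17ra, a chain shared by interleukin 17 receptors, at 78.3, and Csf2ra, the alpha chain of the GM-CSF receptor, at 77.3. The brightest ligand probes were Cxcl12, a chemokine made constitutively in brain, at 71.8, Il21 at 70.2 (usable on 7 arrays), Ccl4 at 69.3, Il13 at 68.9 and Ccl27a at 67.5. Their order differed between the poly(A) and the total RNA arrays, which also differ in print layout. Cxcl12 stood at 81.1 on the arrays of poly(A) RNA and at 41.3 on those of total RNA, where Ccl27a stood at 74.0. Socs5, at 66.3, was the brightest inhibitor.

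A usable spot, with signal above the local background in both channels, was present on 68.8% of the 16 arrays for the median member (ligands 62.5%, receptors 75%), against 75% for the median of all probes. On the 3 arrays of poly(A) RNA the median was 33.3% for members and 66.7% for all probes, and on the arrays of total RNA it was 76.9% for both. If a spot had to be at least as bright as its background, the median member was usable on 31.3% of arrays, against 37.5% for the median of all probes. Il33, an alarmin of the interleukin 1 family, Il34, a ligand of the microglial receptor for CSF1, Ccr10 and Socs5 were usable on all 16 arrays. With Ccl2 and Ccl12, both attractants of monocytes, they were the 6 members with a value in every replicate. At least 2 replicates at a time were needed for a test. This left 98 members tested at 1 time or more (36 at all 3 times, 42 at 2 and 20 at 1). The 12 tested at no time were Ccl11, Ccl17, Ccl24, Ccr7, Il6, Il7, Il11, Il18rap, Il21, Il31, Socs6 and Tnfsf10.

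**Figure D1:**
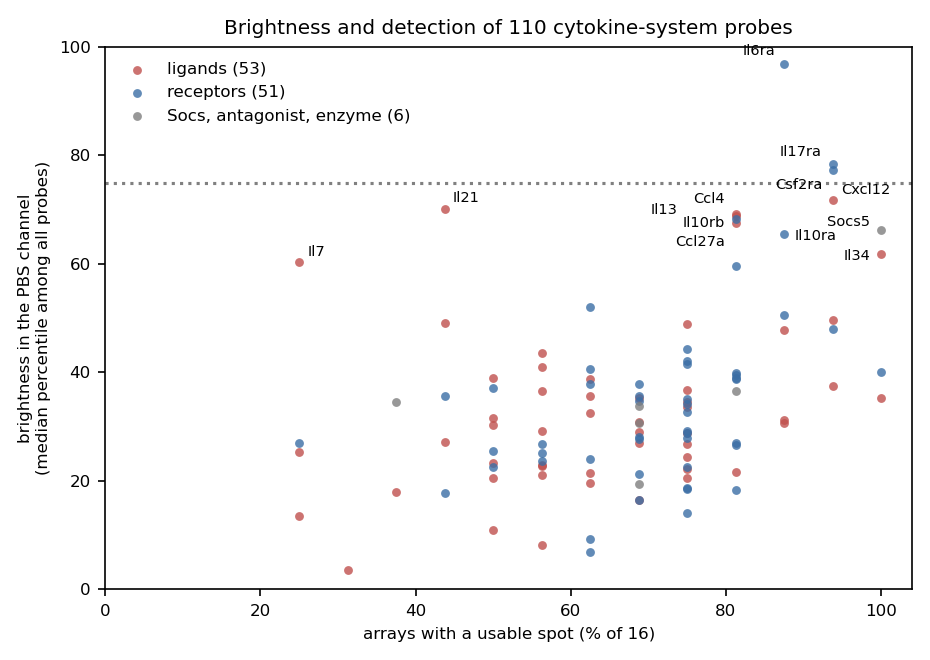
Each point is 1 of 110 probes, with the share of the 16 arrays on which it had a usable spot (percent, horizontal) and the median percentile of its PBS-channel brightness among all probes (vertical). Only 3 receptor probes, Il6ra, Il17ra and Csf2ra, lie above the dotted line at the 75th percentile, and the median member lies at 32.1.

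At 18 h no member passed the test. Of 76 members tested, 42 had a mean ratio above 0 and 34 below, and the median log2 ratio was 0.02 (ligands 0.03, receptors 0.01), against -0.02 over all 5733 probes tested. The test was limma's moderated test with Benjamini-Hochberg adjustment over all probes, and 0 members were called where 0% of all probes were. At an unadjusted p under 0.05 there were 2 members (Tnfsf14 and Il10ra, 2.63%), against 4.66% of all probes. The sign was the same in every measured replicate for 31 members (40.8%), against 38.7% of all probes.

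At 72 h, 53 members were tested, 28 with a mean ratio above 0 and 25 below. The median was 0.02 (ligands 0.00 and receptors 0.01), against -0.01 over 4612 probes. Again 0 members were called by limma's test, as 0% of all probes were. At an unadjusted p under 0.05 there were 2 members, Ccr3 and Il2rb (3.77%), against 1.06% of all probes. The sign was shared by the replicates for 25 members (47.2%), against 47.1% of all probes.

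At 192 h, 83 members were tested, 44 above 0 and 39 below, with a median of 0.01 (ligands 0.00, receptors 0.01), against 0.01 over 7136 probes. No member was called by limma's test, as 0% of all probes were. Il22, Ccr8 and Il13ra2 had an unadjusted p under 0.05 (3.61%, against 2.59% of all probes). The sign was shared by all measured replicates for 24 members (28.9%), against 25.9% of all probes. Over the mean of the 3 times, 36 members were tested and 0 were called (0% of 3171 probes), and 3 had an unadjusted p under 0.05 (8.33%, against 2.87% of all probes). All 3 were receptor chains with a negative mean ratio, Il6ra by the brighter of its probes. Csf2ra stood at -0.21 ± 0.09 (SE), Il2rb at -0.25 ± 0.10 and Il6ra at -0.20 ± 0.09. Each had an adjusted p of 0.992 by limma's test, and the 95% interval of Il6ra ended at -0.0004. Of the 20 receptor probes tested over the 3 times, 12 had a mean above 0 and 8 below. In replicate 3 at 72 h, the single array, Csf2ra read -0.49, Il2rb -0.23 and Il6ra -0.41. Replicate 4 read -0.19, -0.62 and -0.10 for the same probes.

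**Figure D2:**
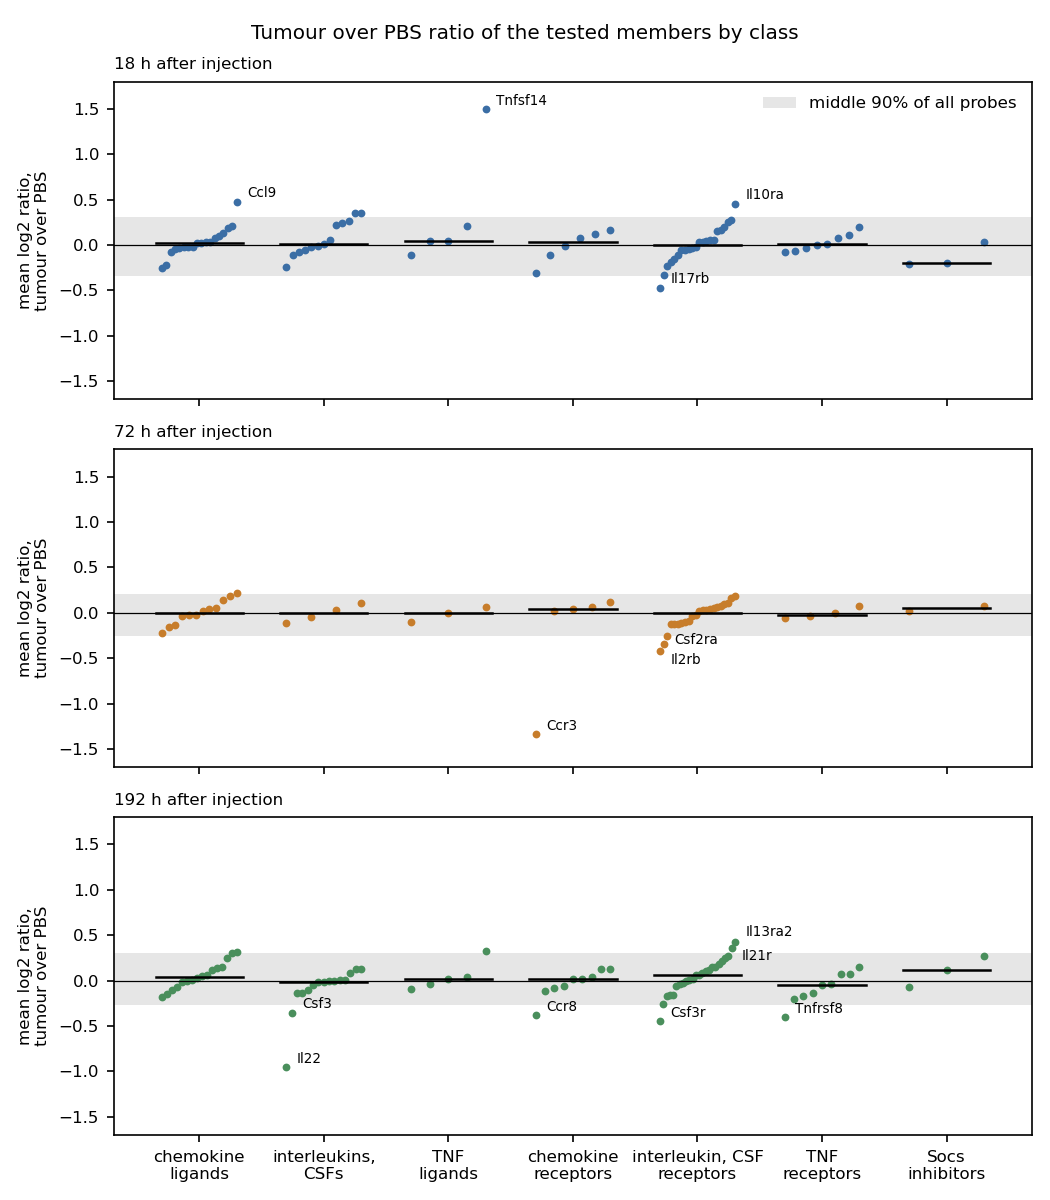
Each point is the mean log2 ratio of tumour over PBS of 1 tested member at 1 time, sorted within its class. Means are over 2 or 3 replicates at 18 h, 2 at 72 h and 2 to 4 at 192 h. Il4i1 and Il1f5 are not drawn. Black bars are class medians, and the grey band holds the middle 90% of all probes at that time (-0.35 to 0.31 at 18 h, -0.25 to 0.21 at 72 h and -0.26 to 0.31 at 192 h). Most members lie in the band, with Tnfsf14 at 18 h, Ccr3 at 72 h and Il22 at 192 h far outside it.

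Outside the middle 90% of all probes lay 6 members at 18 h (7.9% of those tested), 4 at 72 h (7.55%) and 10 at 192 h (12.1%). At 18 h these were Tnfsf14, Ccl9, Il10ra, Il12a and Il18 above and Il17rb below. At 72 h they were Ccl12 above and Ccr3, Csf2ra and Il2rb below. At 192 h they were Ccl28, Cxcl1, Il13ra2, Il21r and Tnfsf9 above and Ccr8, Csf3, Csf3r, Il22 and Tnfrsf8 below. No symbol stood outside the band at more than 1 time.

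Among the chemokine ligands, 24 probes were present and 21 were tested at 1 time or more. At 18 h 10 of 18 lay above 0 (median 0.02), at 72 h 6 of 12 (median 0.00) and at 192 h 10 of 16 (median 0.04), and 0 were called at any time. Ccl2, the main monocyte attractant, read 0.23, -0.36 and 0.07 in replicates 3, 4 and 5 at 18 h, 0.24 and 0.12 in replicates 3 and 4 at 72 h, and 0.07, 0.36, -0.12 and 0.13 in replicates 1 to 4 at 192 h. Its replicates straddled 0 at 18 and 192 h and were both above 0 at 72 h, where the mean was 0.18 ± 0.17 (SE, n = 2, adjusted p = 1.00 by limma's test). Ccl12, of the same gene cluster and a ligand of the same receptor in mouse, read -0.26, 0.54 and 0.02 at 18 h, 0.18 and 0.26 at 72 h, and -0.27, 0.37, -0.20 and -0.20 at 192 h. It too was above 0 in both replicates at 72 h alone (mean 0.22 ± 0.20, SE). Its replicate 3 there is the single array, and the arrays of replicate 4 differed in sign. They read -0.06 with the tumour RNA in Cy5 and 0.57 with it in Cy3.

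Ccl9, a chemokine of macrophages, read 0.07, 1.51 and -0.15 at 18 h, so that its mean of 0.48 ± 0.28 (SE, n = 3) came from replicate 4, and without that replicate the mean was -0.04. Cxcl12 read 0.93, -0.18 and -0.64 in the replicates of 18 h, with 1.77 on 1 array of replicate 3 and 0.09 on its dye-swapped partner. Its mean there was 0.04 ± 0.24 (SE), with replicates on both sides of 0. Ccl4, a chemokine of macrophages and T cells, read -1.98 and 1.01 in replicates 1 and 2 at 192 h, the poly(A) pair of opposite orientation, and 0.04 and 0.21 in replicates 3 and 4. Its largest values thus pointed in opposite directions at 1 time.

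Cxcl1 read 0.16, -0.24 and 0.20 in the replicates of 18 h. At 192 h it read -0.15, 0.68 and 0.43 (replicates 1, 2 and 4), with a mean of 0.32 ± 0.17 (SE) and an adjusted p of 0.999 by limma's test. That mean was 0.0275 from the second of the 3 scanner files alone and 0.55 without replicate 1. Cxcl10 read -0.19 in replicate 4 and 0.23 in replicate 5 at 18 h, and -0.24 and 0.18 at 72 h, on both sides of 0 each time. The related interferon-induced chemokines Cxcl9 and Cxcl11 had means of 0.21 and -0.04 at 18 h and 0.06 and 0.15 at 192 h. Among the genomic neighbours Cxcl5, Cxcl15, Cxcl1 and Cxcl2, 1 of 4 lay above 0 at 18 h. Ccl27a, a ligand of Ccr10, was below 0 in both replicates of 72 h at -0.22 and -0.10. The remaining chemokine ligands are given by their class: over all 18 tested at 18 h the means ran from -0.25 to 0.48, over the 12 at 72 h from -0.22 to 0.22 and over the 16 at 192 h from -0.18 to 0.32.

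**Figure D3:**
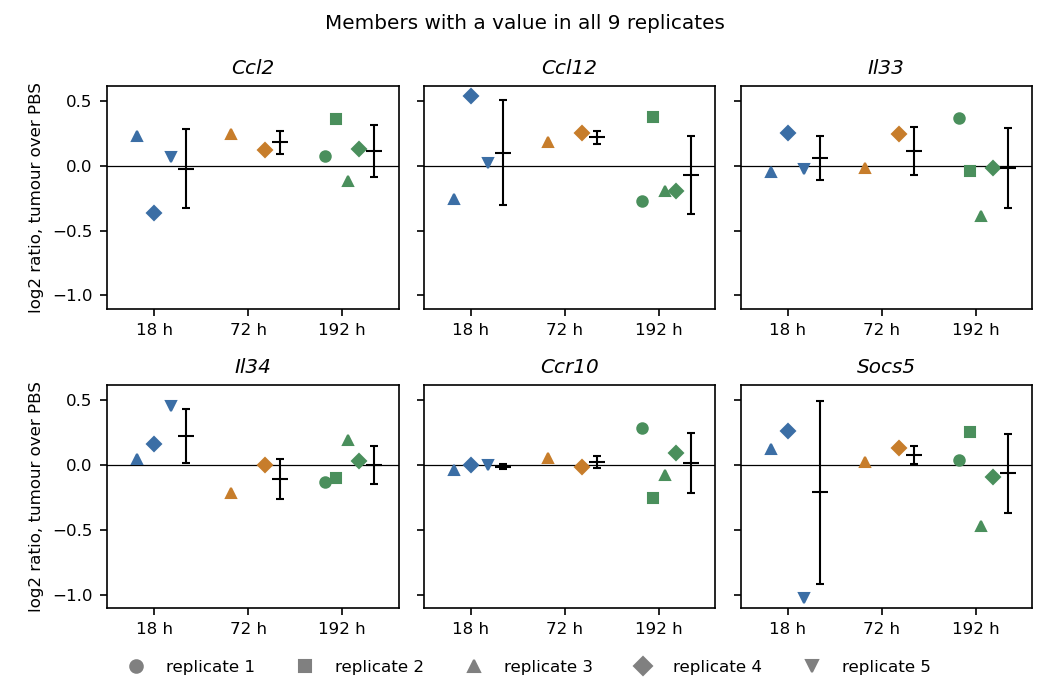
Log2 ratio of tumour over PBS in each replicate for the 6 members measured in all 9 replicates, by time, with the mean and SD beside the points. The replicates of Il33 and Ccr10 straddle 0 at all 3 times, those of Ccl2, Ccl12 and Socs5 at 18 and 192 h, and those of Il34 at 192 h alone. Socs5 has 1 low value (-1.02) at 18 h.

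The interleukins and colony-stimulating factors numbered 22 probes, of which 13 were tested at 18 h (7 above 0), 4 at 72 h (2 above) and 15 at 192 h (5 above), with medians of 0.01, 0.00 and -0.01 and 0 calls. Il1b, the main pyrogenic cytokine of brain and periphery, read 0.14 and -0.16 in replicates 3 and 5 at 18 h, -0.02 and -0.07 at 72 h, and -0.31, -0.07, 0.08 and -0.10 at 192 h. Its mean over the 3 times was -0.05 with a 95% interval of -0.23 to 0.13, so that a 2-fold difference in either direction lay outside the interval. Il6, which the liver and brain use as a signal of inflammation, had a value in 3 replicates only: 0.07 at 18 h, 0.18 at 72 h and -0.49 at 192 h. With 1 replicate at each time it was not tested. Il10, an anti-inflammatory cytokine, read -0.05 and -0.43 at 18 h, 0.07 in the 1 replicate measured at 72 h, and -0.24 and -0.04 at 192 h. Its replicates were below 0 at 18 and 192 h, with a mean of -0.24 ± 0.17 (SE) at 18 h and an adjusted p of 0.999 by limma's test.

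Il34, which in mouse brain is made by neurons and maintains microglia, read 0.05, 0.16 and 0.45 at 18 h, -0.22 and 0.00 at 72 h, and -0.13, -0.10, 0.19 and 0.03 at 192 h. All 3 replicates of 18 h were above 0 (mean 0.22 ± 0.12, SE) and both of 72 h were below (replicate 4 at -0.0019). Il33 read -0.05, 0.26 and -0.02 at 18 h, -0.02 and 0.24 at 72 h, and 0.37, -0.04, -0.38 and -0.02 at 192 h, on both sides of 0 at each time. Il12a, a subunit of interleukins 12 and 35, had a mean of 0.35 ± 0.16 (SE) at 18 h from replicates at 0.56 and 0.15. On the arrays of the first of these it read 1.47 with the tumour RNA in Cy3 and -0.36 with it in Cy5.

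Il22, a cytokine of T cells and innate lymphoid cells that acts on epithelia, had the lowest mean of any tested member at 192 h, -0.96 ± 0.32 (SE, n = 2). Its replicates read -0.28 and -1.63, both of poly(A) RNA, the first an array with the tumour RNA in Cy5 and the second one with it in Cy3. The unadjusted p was 0.0271 and the adjusted p 0.999 by limma's test. A single array of replicate 4, in Cy3, read 0.62, and with 1 orientation allowed the mean was -0.43. Csf3, the granulocyte growth factor G-CSF, read -0.31 and -0.40 in replicates 1 and 4 at 192 h. Its mean was -0.35 ± 0.15 (SE, adjusted p = 0.999 by limma's test), and -0.065 with 1 orientation allowed. Il13, a T helper 2 cytokine, lay on both sides of 0 at 18 h (0.07, -0.38, 0.25) and at 192 h (0.14, 0.29, -0.04).

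Of the 7 TNF family ligands, 5 were tested at 18 h, 3 at 72 h and 5 at 192 h, and 0 were called. Tnfsf14, also called LIGHT, a T cell ligand that binds the lymphotoxin beta receptor, had the highest mean of any tested member at 18 h, 1.49 ± 0.59 (SE, n = 2). The value came from replicate 4, which read 2.96, while replicate 3 read 0.03. On the arrays of replicate 4 it read 2.07 with the tumour RNA in Cy5 and 3.85 with it in Cy3, so that both orientations were high. The only usable array of replicate 5 read -0.02. The adjusted p was 0.995 by limma's test, and with the loess curve fitted inside each sub-grid of the array the mean was 0.34. Tnfsf13b, the B cell survival factor BAFF, was above 0 in all 3 replicates at 18 h (0.31, 0.06 and 0.24, mean 0.20 ± 0.12, SE). Tnfsf9, the ligand of 4-1BB, read 0.42 and 0.23 at 192 h (mean 0.33 ± 0.16, SE), and 0.01 and 0.11 at 72 h.

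The chemokine receptors numbered 10 probes. At 18 h 3 of 6 tested lay above 0, at 72 h 4 of 5 and at 192 h 5 of 9, with medians of 0.03, 0.04 and 0.01 and 0 calls. Ccr10, a receptor of Ccl27a and Ccl28, had replicates of 18 h within -0.04 and 0.00, of 72 h at 0.06 and -0.01, and of 192 h at 0.29, -0.25, -0.08 and 0.10. Ccr8, a receptor of Ccl1 found on regulatory and T helper 2 cells, read -0.62, -0.17 and -0.35 in replicates 1, 3 and 4 at 192 h. All 3 were below 0, with a mean of -0.38 ± 0.16 (SE), an unadjusted p of 0.0418 and an adjusted p of 0.999 by limma's test. At 72 h Ccr8 read 0.32 and -0.23, on both sides of 0. Ccr1, a receptor of Ccl3 and Ccl9, read -0.23 and -0.38 at 18 h, and with 1 orientation of a replicate allowed its mean was 0.02.

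Ccr3, the eotaxin receptor, had the largest mean in size of any tested member at 72 h, -1.34 ± 0.50 (SE, n = 2, unadjusted p = 0.0279, adjusted p = 1.00 by limma's test). Replicate 3, the single array with the tumour RNA in Cy5, read -2.54, and replicate 4, a dye swap, read -0.14. The arrays of replicate 4 read -2.10 with the tumour RNA in Cy5 and 1.82 with it in Cy3. The same opposition stood in every swapped replicate of Ccr3: -1.60 in Cy5 against 0.74 in Cy3 for 18 h replicate 3, -1.53 against 2.85 for 18 h replicate 5, and -1.19 against 1.25 for 192 h replicate 4. Its dye part, the Cy5 value minus the Cy3 value divided by 2, ran from -2.19 to -1.17 over these 4 replicates, and its mean over both orientations was 0.03. Among the 81 members with 3 or more swapped replicates, whose median dye part was 0.10 in size, that of Ccr3 was the largest. With replicate 4 alone the mean at 72 h was -0.14, and with all 23 arrays it was 0.05.

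The interleukin and colony-stimulating factor receptors were the largest class, 30 probes, with 22 tested at 18 h (11 above 0), 22 at 72 h (11 above) and 24 at 192 h (15 above). Their medians were 0.00, -0.01 and 0.07, and 0 were called. Il10ra, the ligand-binding chain of the interleukin 10 receptor and a microglial transcript in brain, read 0.39 and 0.52 in replicates 3 and 5 at 18 h. Its mean was 0.46 ± 0.16 (SE, n = 2), with a 95% interval of 0.10 to 0.82, an unadjusted p of 0.018 and an adjusted p of 0.995 by limma's test. All 4 arrays of these replicates lay above 0, at 0.53, 0.26, 0.50 and 0.54. At 72 h Il10ra read -0.03 and -0.19, and at 192 h 0.19, -0.24, 0.30 and 0.22. The values of 18 h lay above the later ones, but replicate 4 of 18 h had no value. Il10ra was named for its small p at 18 h, and the share of all probes with such an order was not computed. The F test over the 3 times gave it an unadjusted p of 0.09 and an adjusted p of 0.9999. Il10rb, the other chain of that receptor, read 0.12 and -0.23 at 18 h and 0.13, 0.35 and -0.03 at 192 h, on both sides of 0.

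The brighter Il6ra probe read -0.12 and -0.54 in replicates 4 and 5 at 18 h, -0.41 and -0.10 at 72 h, and 0.18, 0.11, -0.24 and -0.17 at 192 h. All 4 replicates of the first 2 times were below 0, and those of 192 h fell on both sides. With spots at or above background only, the mean at 18 h moved from -0.33 to -0.0072. The dimmer Il6ra probe, at the 22.6 percentile, read 0.22 at 18 h, 0.39 and -0.17 at 72 h and -0.14 at 192 h. The probes differed in sign in replicate 5 at 18 h and in replicate 3 at 72 h. Both were below 0 in replicate 4 at 72 h and in replicate 4 at 192 h. Il6st, the gp130 chain that interleukin 6 family receptors share, read -0.22 and -0.01 at 72 h and 0.17, 0.46 and -0.08 at 192 h. Csf2ra read -0.18, -0.03 and -0.49 at 18 h, -0.49 and -0.19 at 72 h. Replicates 1, 2 and 4 of 192 h read -0.28, 0.18 and -0.09, so that it was below 0 in 7 of 8 replicates. Il2rb, the beta chain for interleukins 2 and 15, read -0.16 and -0.14 at 18 h, -0.23 and -0.62 at 72 h, and 0.00 and -0.32 at 192 h. Its mean at 72 h was -0.42 ± 0.17 (SE), with an unadjusted p of 0.0352 and an adjusted p of 1.00 by limma's test.

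Il17ra read 0.02, -0.03 and 0.17 at 18 h, -0.24 and 0.00 at 72 h. Replicates 2, 3 and 4 of 192 h read 0.29, 0.17 and 0.18. All 3 values of 192 h were above 0 (mean 0.21 ± 0.11, SE, adjusted p = 0.999), and the mean at 72 h was 0.00 without replicate 3. Il13ra2, a decoy receptor of interleukin 13, read 0.76 and 0.56 in the poly(A) replicates of 192 h and -0.04 in replicate 4, of total RNA. Its mean was 0.43 ± 0.17 (SE, n = 3), with an unadjusted p of 0.0366 and an adjusted p of 0.999 by limma's test, and it read -0.04 and -0.14 at 72 h. Il21r read 0.46 and 0.26 at 192 h (mean 0.36 ± 0.16, SE). Il17rb, a receptor of interleukin 25, read -0.84 and -0.10 at 18 h, and in the first of these the arrays read -1.49 in Cy3 and -0.19 in Cy5. For interleukin 1, the signalling receptor Il1r1 read -0.47 and 0.09 at 18 h, the decoy receptor Il1r2 read 0.05 and 0.27 at 72 h, and the shared chain Il1rap read 0.03 and 0.34 at 72 h. Il1rapl2, a brain protein related to Il1rap, was above 0 in all 3 replicates of 192 h, at 0.25, 0.47 and 0.03.

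**Figure D4:**
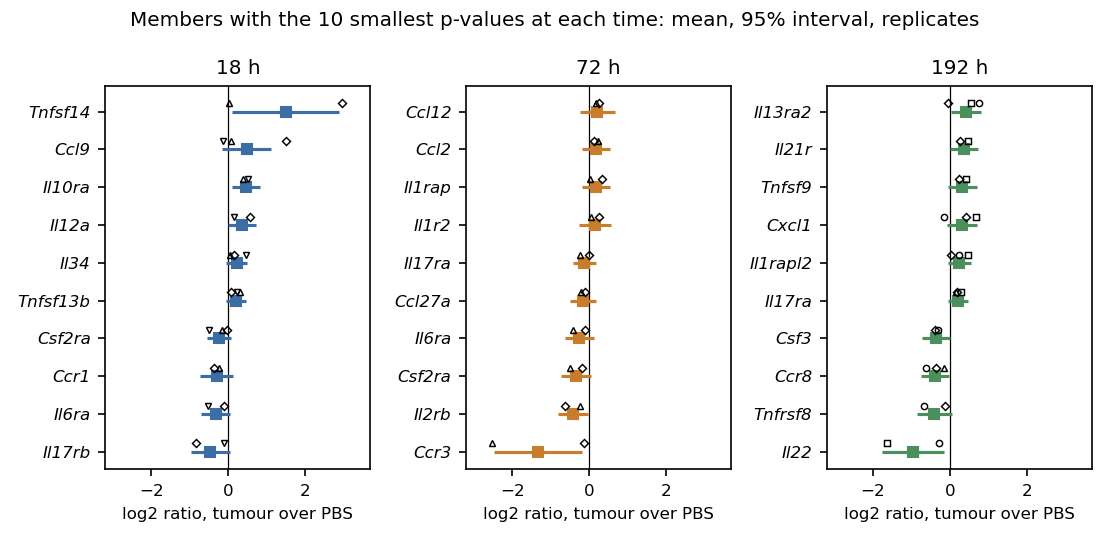
The 10 members with the smallest p-values at each time, with the mean log2 ratio of tumour over PBS (squares), its 95% interval from limma's test (lines) and the replicates (open symbols: circle 1, square 2, triangle 3, diamond 4, inverted triangle 5). Only 7 intervals leave 0 out: Tnfsf14 and Il10ra at 18 h, Ccr3 and Il2rb at 72 h, and Il22, Ccr8 and Il13ra2 at 192 h. For Tnfsf14, Ccr3 and Il22 a lone replicate lies far from the other.

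Of the 11 TNF receptor family members, 8 were tested at 18 h (5 above 0), 4 at 72 h (1 above) and 9 at 192 h (3 above), with medians of 0.01, -0.02 and -0.05 and 0 calls. Tnfrsf8, the lymphocyte receptor CD30, read -0.69 and -0.11 at 192 h (mean -0.40 ± 0.19, SE, adjusted p = 0.999 by limma's test), and 0.01 and -0.16 at 18 h. Among the Socs inhibitors, Socs3 read 0.29 and -0.21 at 18 h and 0.26, 0.10 and -0.01 at 192 h. Its 95% interval at 18 h was -0.37 to 0.44. Socs2 read -0.32 and -0.07 at 18 h and 0.16 and 0.39 at 192 h. Socs5 read 0.13, 0.26 and -1.02 at 18 h, 0.03 and 0.13 at 72 h, and 0.04, 0.25, -0.47 and -0.09 at 192 h. The low value of replicate 5 stood on both of its arrays, at -0.98 and -1.06. Il1f5, an antagonist of the interleukin 36 receptor, read 0.31 and -0.12 at 18 h and lay on both sides of 0 at 192 h. Il4i1, an enzyme induced by interleukin 4, was above 0 in all 3 replicates of 192 h, at 0.58, 0.13 and 0.08.

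Ligands and receptors that bind each other can be set side by side at 192 h, the time with the most replicates. Ccl1 had a mean of 0.05 and its receptor Ccr8 of -0.38. Il13 had a mean of 0.13 and Il13ra2 of 0.43. Csf3 had a mean of -0.35 and its receptor Csf3r of -0.44, the latter from replicates 2 and 4 at -1.08 and 0.19. Only replicate 4 had a value for both, and there Csf3 read -0.40 and Csf3r 0.19. Tnfrsf4 and its ligand Tnfsf4 had means of -0.04 and 0.02. Cxcl1 had a mean of 0.32 and its receptor Cxcr2 of -0.06. These pairs were picked after their values had been seen, and none of their members passed the test.

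No member was called for a difference between the times. The F test over the 3 times covered 36 members, of which 0 were called (0% of 3171 probes) and 0 had an unadjusted p under 0.05 (1.55% of all probes). In the pairwise differences 0 members were called, as 0% of all probes were. At an unadjusted p under 0.05 there was 1 of 41 members between 72 and 18 h (against 1.87% of all probes), 1 of 64 between 192 and 18 h (against 3.21%) and 0 of 45 between 192 and 72 h (against 1.16%). Il10ra was lower at 72 h than at 18 h by the difference -0.56 ± 0.23 (SE, unadjusted p = 0.0337, adjusted p = 1.00), and it was the member counted there.

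The dye-swapped arrays show how far a member's ratio repeats within 1 pair of RNA samples. In the 6 swapped replicates, the ratio had the same sign in both orientations for 37% to 50% of members with a value in both, and for 36.5% to 50.8% of all probes. The correlation of the members' ratios between the orientations, a description over probes of the same 2 RNA samples, ran from -0.49 to 0.57. It was above 0 in 1 of the 6, replicate 4 at 18 h (55 probes), in which Tnfsf14 and Ccl9 were high on both arrays. Between replicates 1 and 2 at 192 h, which are of opposite orientation and separate biological replicates, 20 of 42 members (47.6%) had the same sign, against 37.8% of all probes.

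**Figure D5:**
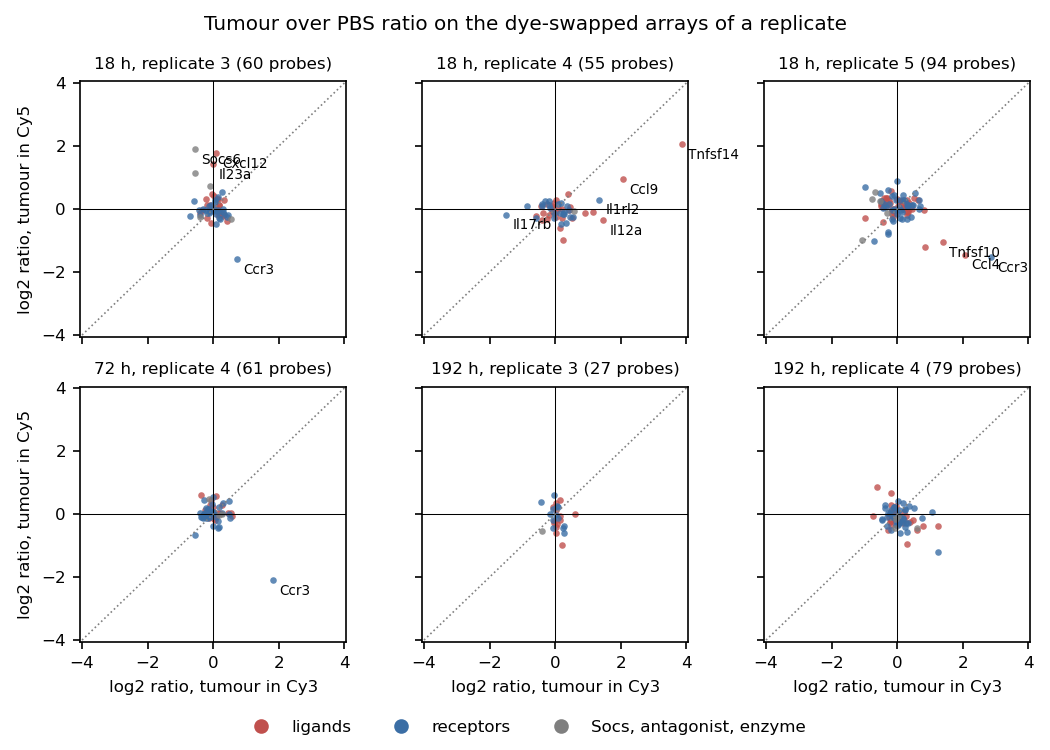
Each point is a member with its log2 ratio of tumour over PBS on the array with the tumour RNA in Cy3 (horizontal) and in Cy5 (vertical), in the 6 dye-swapped replicates. The dotted line marks equal ratios. Tnfsf14 and Ccl9 are above 0 on both arrays of replicate 4 at 18 h, and Ccr3 lies far below it in each replicate where both of its values exist.

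Genes that act downstream of these receptors were looked at as a list of Janus kinases, STAT proteins and NF-kB components and targets. Of 63 symbols listed, 36 were on the arrays (39 probes), and 0 of 23 tested at 18 h, 0 of 22 at 72 h and 0 of 30 at 192 h were called by limma's test. Their medians were 0.00, -0.03 and -0.05. Nfkbia, an inhibitor of NF-kB that NF-kB itself induces, had mean ratios of 0.04, -0.01 and 0.12 at the 3 times. Tnfaip3, an enzyme that shuts NF-kB signalling off, had 0.44 ± 0.18 (SE) at 18 h and 0.32 ± 0.14 at 192 h, from a probe at the 6.21 percentile of brightness, with adjusted p-values of 0.995 and 0.999. Jak2 had -0.19, -0.08 and -0.09. Others of the list lay below 0 by a similar size: Tollip at -0.45 ± 0.24 (SE) at 18 h and Nfkb2 at -0.33 ± 0.17 at 192 h. Of the Peli1 probes, 1 read -0.31 ± 0.13 (SE) at 192 h and the other -0.12 ± 0.23. Above 0 lay 12 of the 23 probes at 18 h, 8 of the 22 at 72 h and 10 of the 30 at 192 h. Of 61 further cytokines and receptors whose symbols fall outside the rule, such as interferons and transforming growth factors, 36 were on the arrays (37 probes), with 0 called of 20, 16 and 28 tested and medians of -0.04, 0.06 and -0.06. Among them Ifng, the main interferon of T cells, had mean ratios of 0.10 at 18 h and 0.09 at 72 h. Microglial and macrophage markers had 0 called of 3, 4 and 8 tested (medians -0.17, 0.12 and 0.08), and blood leukocyte markers 0 of 3, 4 and 5 (medians 0.05, 0.04 and 0.03).

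The replicates set the sizes that could be seen. The median width of a member's 95% interval on either side of its mean was 0.39 for 18 h, 0.38 for 72 h and 0.37 for 192 h. The whole interval lay within a 2-fold difference for 72 of 76 members at 18 h, 51 of 53 at 72 h and 77 of 83 at 192 h. These intervals are on the log2 scale of spot ratios, which for spots near background can be smaller than the ratio of the RNA.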

How the data were processed

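RNA of the prefrontal cortex was hybridised to 2-colour oligonucleotide arrays printed in house (10080 spots, 5 layouts). Per the file headers, each of 3 scanner files per array holds spot intensity with the local background subtracted by the authors. The deposited value table holds a score per spot, a log ratio whose base and normalisation are not given in the sources used here, and it served as an alternative. Per the labels, the design is a dye swap of biological replicates. Whether animals were pooled is not given, so p-values measure the spread between these samples. Channel A was taken as Cy3, because the deposited scores then follow the labelled dyes. Were it the other way, every direction would turn.

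The log2 ratio was normalised per scanner file by loess (span 0.3, 4 iterations), signed as tumour over PBS, and then averaged across files, spots of 1 GenBank entry and the orientations of a replicate. A swapped replicate needed both orientations. Arrays whose mean Spearman's rho with arrays of other layouts (those with bright housekeeping probes) was not above 0.1, a limit set with these values known, were left out. Each probe with 2 or more replicates at a time was fitted with a mean per time and moderated variances (limma 3.58.1, R 4.3.3), which was checked on simulated data and against lmFit and eBayes. Adjusted p-values are by Benjamini-Hochberg over all probes, with a threshold of 0.05. Symbols came from the platform tables, updated by gene identifier to GRCm38.p6.

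The text names members with a value in every replicate, the 10 brightest, the 10 with the smallest p at each time, those whose replicates shared a sign with a mean of at least 0.5 in size, and, where on the arrays, a fixed list (Il1b, Il6, Il6ra, Il6st, Il1r1, Il10, Ccl2, Cxcl10, Cxcl12, Il34, Socs3). Other members named were chosen after their values were seen. The members and all lists were chosen with earlier results of these data known. Markers of endothelium, astrocytes, choroid plexus, striatum and epithelial tumour cells also had 0 probes called, and red blood cell markers had 0 probes. Alternatives covered background, normalisation, dye, scanner file, layout, arrays left out and single replicates.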

Additional observations from a re-analysis of the deposited data

Results flagged for a closer look

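Ccl12 at 192 h had 1 replicate far from the others: replicate 2, of poly(A) RNA with the tumour RNA in Cy3, read 0.37, while the other 3 lay between -0.27 and -0.20. Of the 11 named members with 4 replicates at that time, it was the only one past Dixon's 95% limit for 4 samples (gap over range, 0.885). Chance alone passes the limit in about 1 group of 20.

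Ccl9, Ccr3, Il10ra, Il34 and Tnfsf14 each had every measured replicate of 1 time above 0 and every one of another time below. They come from 43 member probes named in part for a small p or a shared sign, which makes such a pattern likelier. The share of all probes with this pattern was not computed, so these 5 cannot be set against a background. At a single time, 25.9% to 47.1% of all probes had 1 sign in every measured replicate, which is a different measure. Some values lay next to 0: -0.0001 for Tnfsf14 (192 h replicate 1) and -0.0019 for Il34 (72 h replicate 4). Ccl9 read -0.01 in replicate 4 at 72 h and 0.02 in replicate 4 at 192 h. The differences by limma's test were 0.46 ± 0.49 (SE) for Ccl9 (192 h minus 72 h), 1.47 ± 0.70 for Ccr3 (192 h minus 72 h), -0.56 ± 0.23 for Il10ra (72 h minus 18 h), -0.33 ± 0.19 for Il34 (72 h minus 18 h) and -1.59 ± 0.83 for Tnfsf14 (192 h minus 18 h). Adjusted p-values were between 0.999 and 1.00, so that no difference passed the test. For Ccr3 the 72 h value rests on the single array in Cy5, and for Tnfsf14 the 18 h value rests on replicate 4.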

How the results depend on the processing

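In the 24 alternatives run, 0 members were called in any comparison they covered, while over all probes at most 9 were called in 1 comparison (72 h, without 72 h replicate 3) and 3 of 2553 by the F test with replicate block. Same-numbered replicates of different times correlated at -0.12 to 0.01. This cannot decide whether the numbers pair the samples, since even swapped arrays of the same replicate correlated at -0.40 to 0.09 over all probes. The replicate block left 0 members called. The median of the ligands at 72 h was 0.0913 with median centring in place of loess, 0.0488 with loess in each sub-grid, 0.022 with spots at or above background only, 0.0439 with scanner file 1 and 0.0385 with scanner file 3 alone, 0.0544 with dye orientation as a covariate, -0.038 where 1 orientation was enough and 0.0546 with all 23 arrays. At 192 h it was -0.126 with median centring, and at 18 h -0.135, 0.137 and -0.0371 with scanner files 1, 2 and 3 alone. The median of the receptors was 0.116 at 18 h with scanner file 3 alone, and at 72 h -0.0425 with scanner file 2 alone and -0.0434 with all 23 arrays. With spots at or above background only, the median share of arrays with a usable spot was 31.3% for members and 37.5% for all probes. The sign turned for Ccr1 at 18 h where 1 orientation was enough (0.021), and with all 23 arrays for Ccl2 (-0.141) and Ccr3 (0.0542) at 72 h. Without single replicates, Ccl9 at 18 h ran from -0.0377 to 0.79 and Il17ra at 72 h from -0.244 to 0.0039. The cause of these differences was not tested. Of 594 recomputed values of members among the 10 smallest p of a time, 589 kept their sign and 0 passed the threshold. Of 1377 recomputed values of members given as a description, 159 had another sign and 65 lay beyond 1 SD. Spot signal of 1.82 to 4.59 times the background and 2 to 4 replicates limit the precision.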
